A study of Mus musculus with 6 samples.

Results

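The genes described here are 6 that are known from non-myelinating Schwann cells of peripheral nerve, also called Remak cells: Ncam1, L1cam, Cdh2, Gfap, Scn7a and Gap43. They were chosen by name, as probe sets with exactly 1 gene symbol in the platform annotation, and all 6 were found among the 22180 genes measured. RNA came from whole sciatic nerve, the large nerve of the leg, and was measured on 1 Affymetrix whole-transcript array per sample. The 3 Srebf-1c KO samples came from mice of 10 months that lack Srebf-1c, a form of the Srebf1 product known for driving fatty acid synthesis genes, and the 3 wild-type samples came from littermates of the same age. The labels do not describe how the allele was made, nor the cells in which it is lost, and do not say that each sample is a separate mouse, so the p-values below rest on sample-to-sample spread that may be technical in part.

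Remak cells hold several thin axons each in troughs of their membrane and do not make myelin, while myelinating Schwann cells each wrap a single large axon. The adhesion molecules Ncam1, L1cam and Cdh2 lie at the contacts between Schwann cells and axons or between Schwann cells, and the first pair is lost from Schwann cells once they myelinate. Gfap builds intermediate filaments, Scn7a is an atypical member of the sodium channel family, and Gap43 is a membrane-bound growth protein. None of the 6 is found in Remak cells alone: growing and sensory axons carry Gap43 and L1cam, and muscle carries Ncam1 and Cdh2.

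The mouse promoters of Gfap, Scn7a and L1cam are shown because SREBP proteins, the products of Srebf1 and Srebf2, bind sterol regulatory elements and some E-boxes near gene starts. The letters are from RefSeq on GRCm38.p6 and give the 250 bases before the most upstream start site, 5′ to 3′ on the gene's own strand, which is the minus strand for all 3. The windows are chr11:102897201-102897450 for Gfap, chr2:66784911-66785160 for Scn7a and chrX:73880835-73881084 for L1cam. Capitals mark the sterol regulatory element letters TCACNCCAC in Gfap and the E-box letters CANNTG in Scn7a and L1cam, each searched on both strands.
Gfap: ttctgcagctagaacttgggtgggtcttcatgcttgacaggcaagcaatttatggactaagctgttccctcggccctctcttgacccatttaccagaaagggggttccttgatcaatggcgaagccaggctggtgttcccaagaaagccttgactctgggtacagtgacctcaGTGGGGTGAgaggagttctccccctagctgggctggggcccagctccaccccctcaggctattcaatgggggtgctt
Scn7a: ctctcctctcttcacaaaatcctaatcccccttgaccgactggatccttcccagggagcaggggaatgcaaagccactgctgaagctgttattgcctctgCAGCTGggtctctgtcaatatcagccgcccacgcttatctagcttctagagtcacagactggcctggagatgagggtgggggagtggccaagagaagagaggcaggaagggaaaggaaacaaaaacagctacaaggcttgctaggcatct
L1cam: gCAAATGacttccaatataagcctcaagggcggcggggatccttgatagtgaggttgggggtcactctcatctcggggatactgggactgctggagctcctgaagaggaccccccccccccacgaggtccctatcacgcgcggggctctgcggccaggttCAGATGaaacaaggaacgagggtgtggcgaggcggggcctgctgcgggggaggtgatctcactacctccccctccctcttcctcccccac

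The Gfap window held 1 match to the sterol regulatory element, read on the other strand as GTGGGGTGA, from 77 to 69 bases before the start site. Such a match was present in 1.03% of 27025 promoters of the same length. The windows of Scn7a and L1cam held none. E-box letters occurred once in Scn7a and 2 times in L1cam, and at least once in 66.1% of all promoters. No match to ACAAAG, letters bound by SOX proteins, lay in the 3 windows, against 16.5% of promoters with at least 1. A match is a run of letters and says nothing of binding, and its absence says nothing of the factor.

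Srebf1 was lower on every array labelled KO. Its log2 intensity was 8.11, 8.06 and 8.04 in Srebf-1c KO nerves and 9.53, 9.55 and 9.70 in wild-type nerves, and it passed the test with a log2 fold change of -1.52 ± 0.11 (SE) and a limma adjusted p = 0.0497. It was the 1 gene of 22180, or 0.00451%, past an adjusted p of 0.05. Its log2 fold change stayed between -1.56 and -1.46 in the 18 alternative settings, but the call was kept in 4 of them and lost in 14, at adjusted p values of 0.0594 to 0.764. Array medians ran from 118.9 to 122.6 in KO and from 115.5 to 118 in wild type. No pair of arrays shared more than 0.117% of its values.

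None of the 6 Remak genes differed between the genotypes beyond the spread between arrays. At an adjusted p of 0.05 in limma 0 of 6 passed, and 0 of 6 had an unadjusted p under 0.05, against 5.83% of all genes. The study's criterion is an unadjusted p under 0.05 with at least a 1.5-fold change. Taken here with the limma p, it was met by 0 of 6, against 1.19% of all genes. With the p left unmoderated it was met by 0 of 6 and by 138 genes in all, against 265 with limma. For each of the 6 the KO and wild-type values overlapped. They did not overlap in 12.3% of all genes. With only 6 genes, counts of 0 do not set the members apart from these shares. The mean was higher in KO for 5 of the 6, against 43.1% of all genes, and the median log2 fold change of the 6 was 0.099, against -0.032 over all genes. In whole nerve, fewer cells of a type and less RNA per cell cannot be told apart.

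**Figure D1:**
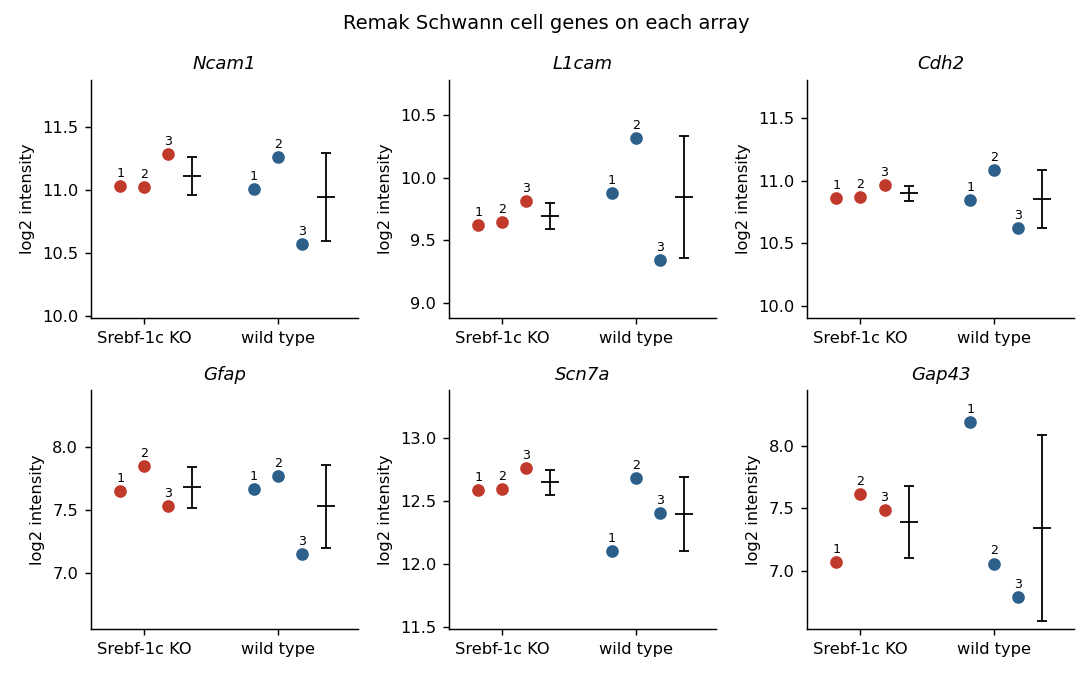
Log2 intensity of each Remak gene on the 3 Srebf-1c KO arrays (red, left) and the 3 wild-type arrays (blue, right), numbered by replicate, with the mean and SD of each group (bars, n = 3). Each panel spans the same log2 range around its own centre. The wild-type points spread wider than the KO points in all 6 panels, and wild-type replicate 3 is the lowest point in 5 of them.

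Of the adhesion genes, Ncam1, an immunoglobulin-family molecule that binds its own kind on the next cell, had log2 intensities of 11.03, 11.02 and 11.29 in Srebf-1c KO nerves and 11.01, 11.26 and 10.57 in wild-type nerves. The KO values lay inside the wild-type range apart from the highest, which was just above it. Its log2 fold change was 0.17 ± 0.19 (SE; 95% interval -0.29 to 0.62; limma adjusted p = 0.936). A further probe set carried the symbol of Ncam1 beside that of another gene and was left out. Without wild-type replicate 3 the log2 fold change was -0.023.

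L1cam, a relative of Ncam1 that Schwann cells and axons use to hold on to each other, stood at 9.62, 9.64 and 9.82 in KO and at 9.88, 10.31 and 9.35 in wild type. It was the 1 member with a lower mean in KO, and its 3 KO values all lay between the lowest and the middle wild-type value. The log2 fold change was -0.15 ± 0.24 (SE; 95% interval -0.71 to 0.41; limma adjusted p = 0.955). It was 0.084 when wild-type replicate 2 was left out and -0.40 when wild-type replicate 3 was.

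Cdh2, or N-cadherin, which joins Schwann cells to each other through calcium-dependent contacts, stood at 10.86, 10.87 and 10.97 in KO and at 10.84, 11.08 and 10.62 in wild type. All KO values lay inside the wild-type range. The log2 fold change was 0.047 ± 0.15 (SE; 95% interval -0.30 to 0.39; limma adjusted p = 0.978). Cdh2 was the 1 member of 6 whose interval lay within a 1.5-fold change either way, which held for 61.2% of all genes. A second, dimmer probe set of Cdh2 gave 7.75, 7.64 and 7.73 in KO and 7.34, 7.78 and 7.20 in wild type, a difference of 0.27 between the means, and the groups overlapped there too. With the mean of both probe sets the log2 fold change was 0.16, and with the first alone but without wild-type replicate 3 it was -0.067.

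Gfap, the intermediate filament gene best known from astrocytes, stood at 7.65, 7.85 and 7.54 in KO and at 7.67, 7.77 and 7.15 in wild type. Apart from the low value of wild-type replicate 3 the arrays of both genotypes intermingled. The log2 fold change was 0.15 ± 0.19 (SE; 95% interval -0.30 to 0.60; limma adjusted p = 0.941), and it was -0.039 without that array. Gfap is the member whose promoter window, printed above, holds the sterol regulatory element letters.

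Scn7a had the largest difference of the 6. The channel it encodes lacks the usual voltage gating of its relatives and is known as a sensor of sodium level. It stood at 12.59, 12.59 and 12.76 in KO and at 12.10, 12.69 and 12.40 in wild type. Wild-type replicate 2 lay above 2 of the 3 KO arrays, and the other wild-type arrays lay below all of them. The log2 fold change was 0.25 ± 0.17 (SE; 95% interval -0.14 to 0.65; limma adjusted p = 0.890), or 1.19-fold. It kept its sign with each array left out, at 0.10 without wild-type replicate 1 and 0.40 without wild-type replicate 2.

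Gap43, a protein of growing axon tips that non-myelinating Schwann cells also make, varied most between arrays. It stood at 7.07, 7.62 and 7.49 in KO and at 8.19, 7.06 and 6.79 in wild type, so that a single wild-type array lay above all KO arrays and the other wild-type arrays lay below all of them. The log2 fold change was 0.046 ± 0.36 (SE; 95% interval -0.79 to 0.89; limma adjusted p = 0.992). Leaving out wild-type replicate 1 gave 0.47 and leaving out wild-type replicate 3 gave -0.23. The interval includes a 1.5-fold change in either direction.

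**Figure D2:**
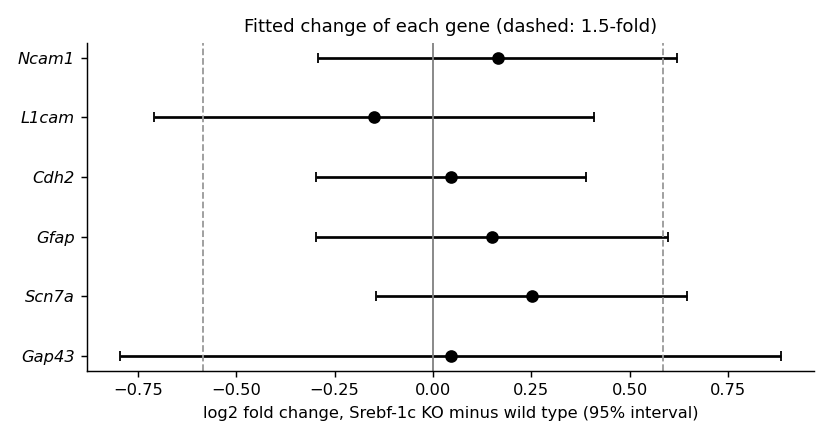
Log2 fold change of each Remak gene, Srebf-1c KO minus wild type (points), with its 95% interval from the limma fit (bars). Every interval crosses 0, and that of Cdh2 alone stays between the dashed lines of a 1.5-fold change, while that of Gap43 runs from -0.79 to 0.89.

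The wild-type arrays differed among themselves more than the KO arrays did. The SD over the 3 wild-type arrays was larger than that over the 3 KO arrays for 6 of 6 members, by 2.06 times for Gfap up to 4.56 times for L1cam, and for 63.6% of all genes. Wild-type replicate 3 was the lowest of the 6 arrays for 5 of the 6 members, the exception being Scn7a, against 15.1% of all genes. For L1cam, Cdh2 and Gap43 the highest and the lowest array were both wild type, as for 27.3% of all genes.

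The pairs of the 6 genes differed in how alike they were over the arrays. Likeness was measured as the root mean square difference, over the 6 arrays, of log2 intensities centred on each gene's own mean, so that 0 means the same profile. It grows with how much a gene varies: a gene at the same level on all arrays would lie 0.46 from Gap43, 0.30 from L1cam, 0.24 from Ncam1, 0.23 from Gfap, 0.22 from Scn7a and 0.14 from Cdh2. Ncam1 and Cdh2 were the closest pair at 0.11, and Ncam1, L1cam, Cdh2 and Gfap lay within 0.24 of each other. Scn7a lay 0.19 from Cdh2 and up to 0.33 from the others apart from Gap43. Gap43 lay 0.40 from Gfap up to 0.60 from Scn7a.

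Gap43 lay close to the mean profile of a list of axon and neuron genes. A score, the mean over the 10 measured genes of that list of the centred log2 intensity, was -0.30, 0.26 and 0.18 in KO and 0.60, -0.24 and -0.49 in wild type, and centred Gap43 was -0.30, 0.25 and 0.12 in KO and 0.82, -0.31 and -0.58 in wild type. The root mean square difference between them was 0.10, where a gene at a constant level would lie 0.38 from that score. The other members lay from 0.33 to 0.50 from it. Genes within the list differed from each other. Nefl, Nefm and Scn10a were highest on wild-type replicate 1, as Gap43 was, at 9.39, 7.61 and 5.97. Prph was highest on wild-type replicate 2, at 7.79, and Nefh on KO replicate 3, at 8.13. With the axon score as a covariate, which was tried after the values were seen, the log2 fold change of Gap43 was -0.062 and its SE was 0.12 in place of 0.36. RNA from axons and RNA from Remak cells cannot be told apart in whole nerve.

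The other members were set beside the genes of the whole Schwann lineage. The lineage score, over Sox10, S100b, Erbb3, Foxd3, Cdh19 and Adgrg6, was 0.093, -0.15 and 0.12 in KO and -0.21, 0.38 and -0.24 in wild type. The root mean square difference from it was 0.12 for Cdh2, 0.16 for Ncam1, 0.17 for Scn7a and 0.19 for L1cam, where a gene at a constant level would lie at 0.22. Gfap, at 0.25, and Gap43, at 0.57, lay farther from it than that. With this score as a covariate the log2 fold change was 0.22 ± 0.13 (SE) for Scn7a and -0.20 ± 0.17 for L1cam. No member passed in that fit, but 0 genes in all did, and Srebf1 was lost too, so this says little of the members.

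**Figure D3:**
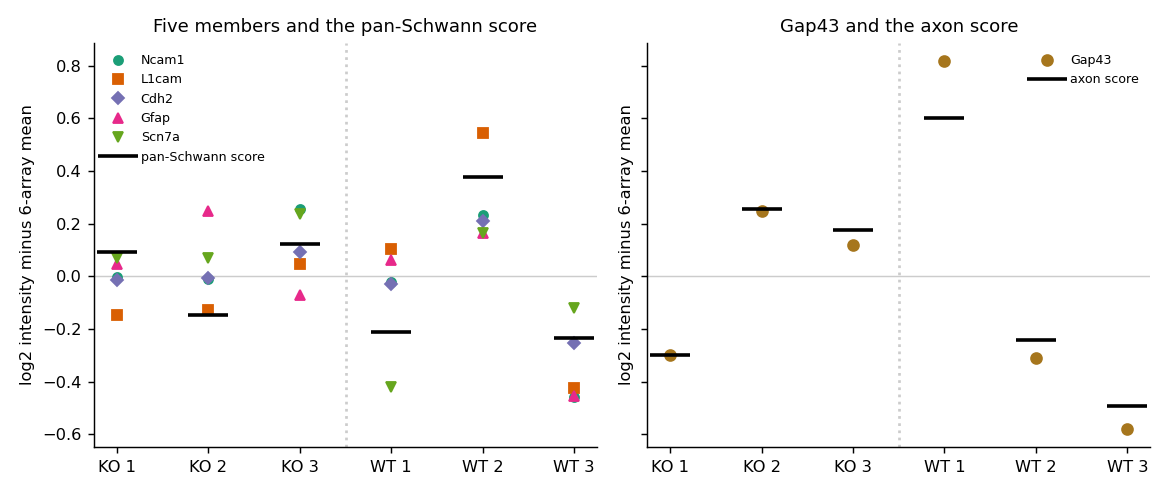
Centred log2 intensity (each gene's 6-array mean subtracted), for the KO arrays (left of each panel) and the wild-type arrays (right). The left panel shows Ncam1, L1cam, Cdh2, Gfap and Scn7a with the score of 6 Schwann lineage genes (bars), and the right panel shows Gap43 with the score of 10 axon genes (bars). Gap43 and the axon score are both highest on wild-type replicate 1 and lowest on wild-type replicate 3.

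Markers of neighbouring tissue also moved between the arrays. The adipocyte score, over 9 genes, was -0.95, 1.51 and -1.06 in KO and -0.87, -0.27 and 1.64 in wild type. The mean of the 6 centred Remak genes was -0.058, 0.071 and 0.11 in KO and 0.086, 0.17 and -0.38 in wild type. For skeletal muscle the score of 12 genes was 0.67, -0.42 and 0.088 in KO and 0.75, -0.88 and -0.21 in wild type. With each score as a covariate the log2 fold change of Scn7a was 0.25 with the adipocyte score and 0.31 with the muscle score. No member passed in these fits, but 0 genes in all did, and Srebf1 was lost too. These fits therefore cannot decide the part of fat or muscle RNA in the Remak levels, which was not tested otherwise.

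By a rule that took the 2 nearest profiles among 10467 brighter named genes, Ncam1 lay nearest to Ttyh1 and Wipf2, at root mean square differences of 0.047 and 0.049 over the 6 arrays. L1cam lay nearest to Zkscan16 (0.051) and Agbl5 (0.068), and Cdh2 to Dtna and Slc22a17 (0.037 each). Gfap lay nearest to Hoxc4 (0.063) and Rnf31 (0.069), and Scn7a to Odf1 (0.032) and Zfp963 (0.034). Gap43 lay nearest to Syt7 (0.057), a calcium sensor of vesicle release, and Panx2 (0.075). These names rest on 6 arrays alone and say nothing of shared function.

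Relatives of the members were examined family by family, and no gene in any of the lists passed adjusted over all genes. Of 13 relatives and partners of Ncam1 and L1cam, 6 had a higher and 7 a lower mean in KO, with a median log2 fold change of -0.0064. St8sia4, which adds polysialic acid to Ncam1, stood at 0.26 ± 0.21 (SE), the L1 relative Chl1 at 0.20 ± 0.21 and the contactin gene Cntn2 at 0.17 ± 0.26. Of 11 other cadherin and catenin genes, 4 were higher and 7 lower with a median of -0.098. The Schwann cadherin gene Cdh19 stood at 0.37 ± 0.22, Cdh6 at -0.34 ± 0.18 and Cdh13 at -0.31 ± 0.22.

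The 10 other sodium channel genes measured under a symbol of their own had a higher mean in KO in 9 cases and a median of 0.18. A higher KO mean held for 43.1% of all genes. Scn2a stood at 0.43 ± 0.33 (SE), the sensory neuron channel gene Scn10a at 0.21 ± 0.17, and Scn3a, the exception, at -0.32 ± 0.22. The score of the 10 genes was highest on wild-type replicate 1 at 0.49, the array with the highest axon score. Scn10a belongs to both lists. Scn10a and Scn3a were dim, at percentiles 21.4 and 32.0 of brightness among all genes. Of 7 other intermediate filament genes 4 were higher and 3 lower with a median of 0.0058, among them the muscle filament gene Des at 0.40 ± 0.38 and the peripheral neuron filament gene Prph at -0.27 ± 0.16. Of 4 measured relatives of Gap43 3 were higher, with a median of 0.083; Marcks stood at -0.15 ± 0.13 and Marcksl1 at 0.080 ± 0.16.

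Other Schwann cell states were set beside the Remak genes. Of 6 genes of the whole lineage 2 were higher and 4 lower in KO, with a median log2 fold change of -0.011; the neuregulin receptor gene Erbb3 stood at -0.10 ± 0.17 (SE) and Adgrg6, a receptor that myelination needs, at 0.11 ± 0.18. Of 12 immature or repair cell genes 4 were higher and 8 lower, with a median of -0.065. Ngfr, the p75 neurotrophin receptor that Remak cells also keep, stood at 8.46, 8.42 and 8.65 in KO and at 8.69, 8.97 and 8.66 in wild type. Its groups did not overlap, by a narrow margin, and its log2 fold change of -0.26 ± 0.14 did not pass (limma adjusted p = 0.870).

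The stress-induced factor gene Atf3 stood at 9.01, 8.69 and 8.99 in KO and at 9.51, 9.69 and 9.28 in wild type, with a log2 fold change of -0.59 ± 0.16 (SE; limma adjusted p = 0.850). Its groups did not overlap, as for Ngfr and for 12.3% of all genes. With the limma p, Atf3 met the study's criterion of an unadjusted p under 0.05 and at least a 1.5-fold change. It was the 1 gene of the 12 in this list to do so, against 1.19% of all genes. The margin was narrow, as 1.5-fold is 0.585 in log2. Atf3 fell short of it with array weights (-0.52), repeated quantile normalization (-0.53) and arrays at 1 median (-0.56). It also did so without KO replicate 2 (-0.49) or wild-type replicate 2 (-0.50). Atf3, Ngfr and Egr2 were named for small p within their lists. Sox2 and Jun, factors of the immature and the repair state, stood at 0.34 ± 0.22 and 0.22 ± 0.17. Of 12 myelinating cell genes 9 were higher and 3 lower, with a median of 0.080. Egr2, the factor that drives myelination, stood at 10.32, 10.14 and 10.22 in KO and at 9.63, 9.93 and 9.64 in wild type, with no overlap and a log2 fold change of 0.50 ± 0.13 (limma adjusted p = 0.850). The myelin genes Fa2h, Cldn19 and Pmp2 stood at 0.35 ± 0.16, 0.30 ± 0.18 and 0.18 ± 0.18.

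Set against the other Schwann genes array by array, the Remak genes did not separate the genotypes. The mean of the 6 centred Remak genes minus the lineage score was -0.15, 0.22 and -0.0086 in KO and 0.30, -0.21 and -0.15 in wild type. Minus the myelinating score it was -0.14, 0.12 and -0.060 in KO and 0.29, 0.053 and -0.27 in wild type. In both cases wild-type replicate 1 had the highest value and the groups overlapped. On that array the mean of the Remak genes was 0.086 with Gap43 and -0.060 without it. The lineage score there was -0.21 and the myelinating score -0.20.

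**Figure D4:**
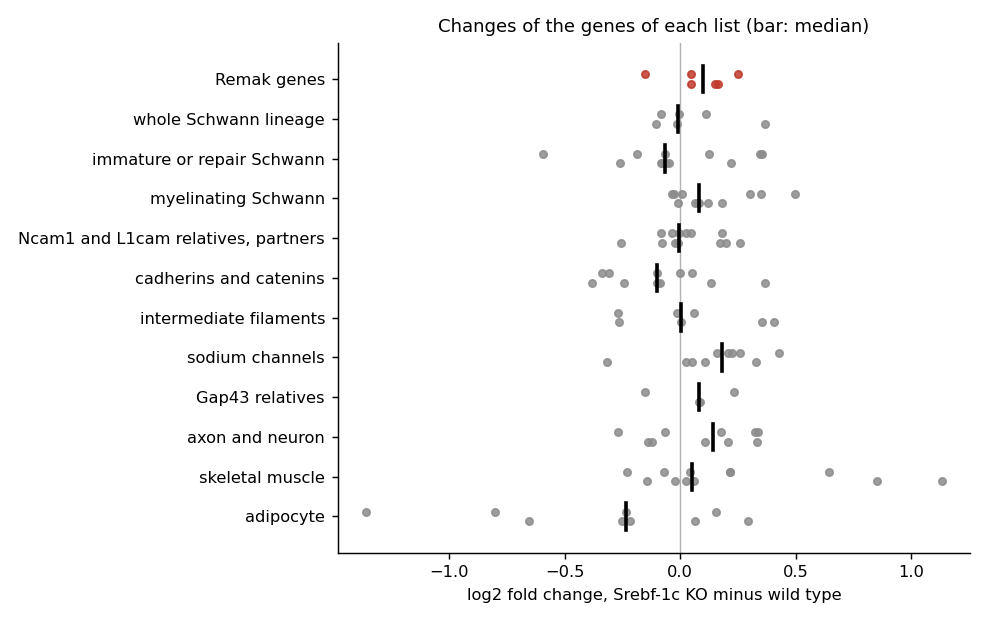
Log2 fold change, Srebf-1c KO minus wild type, of each gene (points) of the Remak genes (red, top) and of 11 other lists (grey), with the median of each list (bars). The Remak genes lie between -0.15 and 0.25, inside the spread of the lists of relatives, while single muscle and adipocyte genes reach 1.13 and -1.36.

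Among markers of the other cells of the nerve, the vascular lists had most of their genes lower in KO, with 7 of 8 endothelial genes and 7 of 8 pericyte and smooth muscle genes below wild type and medians of -0.19 and -0.43. Over all genes the mean was higher in KO for 43.1% and lower for most. The vascular growth factor receptor gene Kdr stood at -0.47 ± 0.20 (SE) and the pericyte gene Cspg4 at -0.34 ± 0.16, and neither passed. The list scores overlapped between the genotypes, at -0.037, 0.18 and -0.44 in KO and -0.11, 0.095 and 0.32 in wild type for endothelial genes, and at -0.20, 0.40 and -0.92 in KO and -0.39, 0.52 and 0.59 in wild type for pericyte and smooth muscle genes. Without KO replicate 3, the lowest array of both, 5 and 6 of the 8 genes were lower, the medians were -0.0038 and -0.24, and Kdr stood at -0.27. Perineurial genes were lower in 5 of 6 cases (median -0.20), with Krt19 at -0.29 ± 0.20. Epineurial fibroblast genes were split 4 to 4 with a median of 0.025 and Lum at 0.28 ± 0.18, as were macrophage genes, with a median of -0.052 and Aif1 at -0.22 ± 0.13. Of the axon genes 6 of 10 were higher in KO (median 0.14), with the neurofilament gene Nefh at 0.33 ± 0.15. Of 12 skeletal muscle genes 8 were higher (median 0.053), with Mb at 0.85 ± 0.63, and of 9 adipocyte genes 6 were lower (median -0.24), with Retn at -1.36 ± 0.97.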

How the data were processed

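RNA of 6 sciatic nerve samples was hybridised to 1 Affymetrix array each. The deposited table gives an intensity for each probe set, from 3.67 to 23738 and so not on a log scale; the authors made it with RMA in TAC and Partek, according to the series' design text. Their versions are not stated there. The submitters' processing notes name the build mm8. Log2 was taken with no pseudocount.

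Groups follow the sample titles and the genotype field; the source field calls the KO samples wild type. Of 41077 probe sets, 23521 carried 1 symbol, and the brightest probe set stood for each of 1082 genes with several, leaving 22180 genes, none filtered for low signal. KO was compared with wild type by limma 3.58.1 (R 4.3.3), lmFit and eBayes, two-sided, with Benjamini-Hochberg adjustment over all genes. The procedure was checked on simulated data. The number of arrays limits the precision.

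The members and gene lists were chosen with earlier results of these data known. Named were Srebf1, the 6 members, up to 4 genes of each list by smallest p, and 2 nearest profiles per member among named genes in the brighter 50%. Replicate numbers 1 to 3 occur in both groups, but deviations of same-numbered arrays correlated at 0.117, 0.012 and -0.233 across genes, so they were not treated as pairs. Promoter letters are from RefSeq (GRCm38.p6) and were found for 3 members. Alternatives were the unmoderated ANOVA, other variance priors, array weights, a dim gene filter, other scalings, the mean of probe sets, cell scores as covariates and leaving out each array; the axon and adipocyte covariates were added after seeing the data. Pandas 2.3.3, numpy 2.4.6 and matplotlib 3.10.9 (Python 3.11.15) were used for tables and plots.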

Additional observations from a re-analysis of the deposited data

How the results depend on the processing

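In each of 18 alternatives 0 of the 6 Remak genes passed an adjusted p of 0.05 and 0 met the study's criterion; Gap43 was left out by the filter on dim genes. With the replicate number as a block, which the check of the pairing did not bear out, 0 genes in all passed an adjusted p of 0.05 and 288 met the criterion. The count past an adjusted p, 1 with all arrays and no covariate, was also 0 with the unmoderated ANOVA, repeated quantile normalization, arrays at 1 median, or the muscle, Schwann lineage, axon or adipocyte score as a covariate, and 0 to 1 with each array left out: 0 in 5 of the 6 fits, and in the fit without KO replicate 2 the 1 gene was Vmn1r157, named after its value was seen, and not Srebf1. The log2 fold change of Srebf1 stayed between -1.56 and -1.46 in the 18 alternatives. The count meeting the criterion was 265, against 138 with the unmoderated ANOVA, 89 without the dimmest 50% of genes, which tests fewer genes, and 231 to 552 with each array left out, the highest without KO replicate 2, then 488 without wild-type replicate 3 and 435 without wild-type replicate 1. Why these counts moved was not tested.

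Signs of small differences turned. With each array left out the log2 fold change ran from -0.023 to 0.32 for Ncam1, -0.40 to 0.084 for L1cam, -0.039 to 0.27 for Gfap, -0.067 to 0.16 for Cdh2, -0.23 to 0.47 for Gap43 and 0.10 to 0.40 for Scn7a. It ran from -0.025 to 0.28 for Adgrg6, -0.25 to 0.055 for Erbb3 and -0.0082 to 0.28 for Pmp2. Gap43 also turned with the muscle score (-0.037) and the axon score (-0.062) as a covariate. Of 552 values for 31 other named genes, 549 kept their direction, but leaving out 1 array moved 26 of the 31 by over 1.5 times: Retn ran from -2.27 to -0.45, Mb from 0.46 to 1.55, Des from 0.012 to 0.75, Scn2a from 0.15 to 0.72 and St8sia4 from 0.060 to 0.41. Atf3 ran from -0.70 to -0.49 and Egr2 from 0.45 to 0.60. No scaling moved the median of all genes by over 0.1.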
